A study of Mus musculus with 4 samples.

Results

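A set of 10 genes of spermatogonial differentiation was read in RNA-seq of THY1-positive spermatogonia from mouse testis: Stra8, Rec8, Kit, Kitl, Sohlh1, Sohlh2, Dmrt1, Dmrtb1, Prss50 and Esx1. They were chosen by symbol, each was found in a single entry of the deposited table, and together they are 10 of 43998 entries. The study compared 2 libraries of a mutant whose germ cells had impaired retinoic acid signalling with 2 control libraries, all from C57BL/6 mice at postnatal day 4. The labels name neither the modified gene nor the driver of the modification, and they leave unsaid whether both libraries of a genotype are from separate animals. Cells had been pulled from the testis by magnetic beads that bind THY1 (also called CD90.2), which undifferentiated spermatogonia carry on their surface. Germ cell genes were high in both genotypes, with Ddx4, of the RNA helicase VASA, at 114 RPKM in mutant and 88.6 RPKM in control, but so were genes of other testis cells, such as the macrophage lysozyme gene Lyz2 at 428 RPKM in mutant and 1339 RPKM in control. The table gives 1 combined value per gene and genotype in RPKM, which scales reads to transcript length and sequencing depth. No spread between libraries can be had from such values, so each difference below has no replicate check, and no SD or p-value is given.

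In the mouse testis, vitamin A is turned into retinoic acid, which binds retinoic acid receptors on DNA and starts the transition from undifferentiated to differentiating spermatogonia. STRA8, a DNA-binding factor needed for entry into meiosis, and REC8, a meiotic cohesin subunit, are induced by retinoic acid, and differentiating cells show the receptor tyrosine kinase KIT on their surface. KIT answers to KIT ligand, which Sertoli cells present. The transcription factors SOHLH1 and SOHLH2, of the basic helix-loop-helix class, and DMRT1 and DMRTB1, of the DM domain class, act in the same transition in mice.

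The retinoic acid induced genes and the transcription factors lay on opposite sides of control. Stra8 was 5.25-fold lower and Kit 2.83-fold lower in the mutant value, whereas Rec8, at 1.19-fold lower, was close to its control level. These are bulk values of THY1-selected cells, and mast cell markers were lower in the same values, with a summed level of 22.9 RPKM in mutant and 237 RPKM in control, as were those of macrophages, at 1595 RPKM in mutant and 4427 RPKM in control; their part in these differences was not tested. All 4 transcription factor genes were higher in mutant, by 1.33-fold to 1.78-fold. The median log2 difference was -1.41 for Stra8, Kit and Rec8 and 0.69 for Sohlh1, Sohlh2, Dmrt1 and Dmrtb1, a gap of -2.10. Log2 differences are mutant minus control of log2(RPKM + 1), and the added 1 shrinks the differences of weakly expressed genes. The gap was -2.20 with a pseudocount of 0.1, -2.15 with one of 0.5, -2.06 with quantile normalization and -2.27 once trends over length and GC content were removed. The median of the transcription factors was 0.046 when mutant values were rescaled so that germ cell identity genes were level, and Dmrt1 was then below control. The median of all genes tested was -0.55 in that scaling.

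A gene was counted as different at 2-fold or more on that scale, among 16473 genes that reached 1 RPKM in at least 1 genotype. By this rule 2 of the 10 genes, Stra8 and Kit, were lower, against a background of 4.35% of all genes tested and 4.06% of the protein-coding ones. None of the 10 was 2-fold higher, against a background of 4.4% of all genes tested and 1.31% of the protein-coding ones. These shares come from single combined values, so no error rate goes with them. All 10 genes passed the filter on low values, and the median difference of all genes tested was 0.0048.

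**Figure D1:**
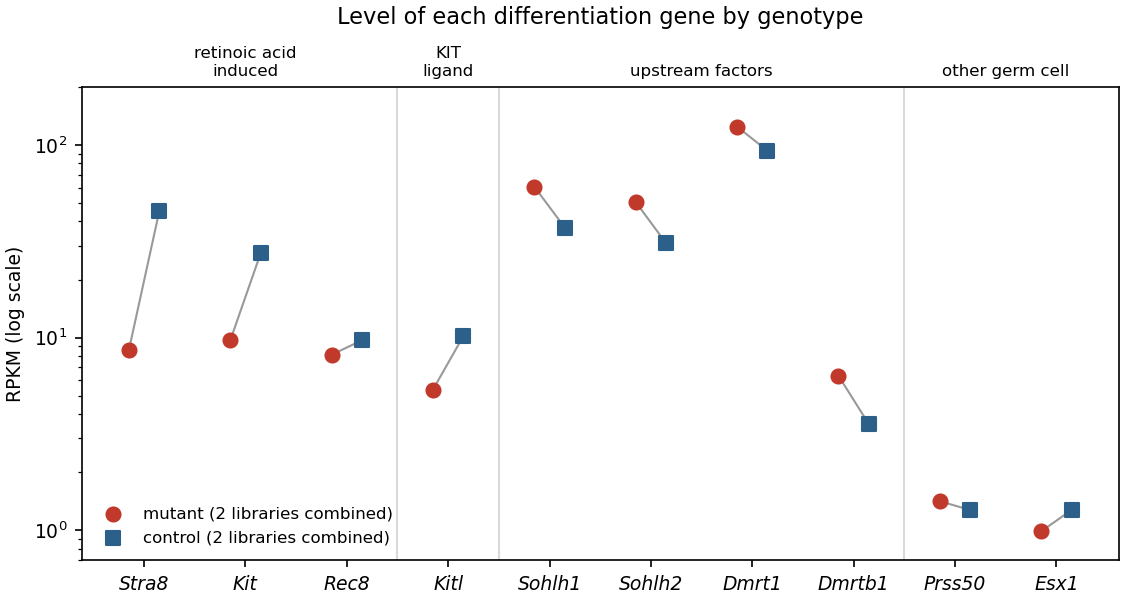
RPKM of each of the 10 genes on a log scale, with a red circle for mutant and a blue square for control, each from 2 libraries combined, and no error bars because there is 1 value per genotype. Stra8 and Kit lie furthest below control (8.60 and 9.65 RPKM in mutant, 45.2 and 27.3 RPKM in control), while Sohlh1, Sohlh2, Dmrt1 and Dmrtb1 lie above control.

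The promoters of 5 of these genes are shown because they carry the contrast between Stra8, Kit and Rec8 and the SOHLH pair. They are from RefSeq on GRCm38.p6, where 9 of the 10 genes had an entry (all but Dmrt1), and run from 250 bases before a transcription start to 50 after it. Capitals mark the core motif of nuclear receptor sites, AGGTCA, and the E-box bound by basic helix-loop-helix factors, CANNTG, on either strand.
Stra8, chr6:34920698-34920997, plus strand: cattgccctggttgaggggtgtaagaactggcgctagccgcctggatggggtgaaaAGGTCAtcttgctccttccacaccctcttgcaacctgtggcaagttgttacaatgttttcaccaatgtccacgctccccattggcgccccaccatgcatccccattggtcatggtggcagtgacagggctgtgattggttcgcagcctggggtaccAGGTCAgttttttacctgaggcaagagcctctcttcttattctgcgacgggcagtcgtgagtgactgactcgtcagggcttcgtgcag
Kit, chr5:75574737-75575036, plus strand: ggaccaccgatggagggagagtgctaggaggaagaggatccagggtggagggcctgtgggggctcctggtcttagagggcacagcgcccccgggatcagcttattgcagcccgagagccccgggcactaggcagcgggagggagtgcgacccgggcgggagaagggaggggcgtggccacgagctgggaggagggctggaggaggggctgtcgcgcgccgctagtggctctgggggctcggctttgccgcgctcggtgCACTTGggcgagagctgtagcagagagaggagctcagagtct
Rec8, chr14:55617916-55618215, plus strand: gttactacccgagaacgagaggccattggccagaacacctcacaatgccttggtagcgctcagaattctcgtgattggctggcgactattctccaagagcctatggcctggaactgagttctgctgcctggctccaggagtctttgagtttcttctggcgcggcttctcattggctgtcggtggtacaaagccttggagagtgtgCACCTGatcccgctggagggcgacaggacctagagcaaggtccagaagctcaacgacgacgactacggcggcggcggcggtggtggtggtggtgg
Sohlh1, chr2:25847199-25847498, minus strand: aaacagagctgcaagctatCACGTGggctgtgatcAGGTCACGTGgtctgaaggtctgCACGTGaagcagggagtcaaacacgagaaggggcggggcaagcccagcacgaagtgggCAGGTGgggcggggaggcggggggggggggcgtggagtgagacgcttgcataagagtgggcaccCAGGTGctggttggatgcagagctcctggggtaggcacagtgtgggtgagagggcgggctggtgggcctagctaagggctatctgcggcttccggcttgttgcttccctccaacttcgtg
Sohlh2, chr3:55181794-55182093, plus strand: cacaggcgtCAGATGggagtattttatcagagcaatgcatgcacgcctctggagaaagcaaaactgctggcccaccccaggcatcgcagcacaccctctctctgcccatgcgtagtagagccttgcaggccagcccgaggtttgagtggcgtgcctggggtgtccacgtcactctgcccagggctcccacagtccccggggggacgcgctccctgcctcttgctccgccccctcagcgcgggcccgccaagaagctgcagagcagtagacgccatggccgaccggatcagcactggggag

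The Stra8 promoter held AGGTCA at 2 places, starting 194 and 38 bases before the transcription start, both on the gene's strand and 156 bases apart. Among 27025 promoters, 1 per gene symbol, 4335 held this motif at least once and 1.74% at 2 or more places. Sohlh1 held 1 copy, 215 bases before its start, which overlapped an E-box. No other promoter of the 9 held AGGTCA, and none held a related core. Of these, AGTTCA was present in 14.0% of promoters, GGGTCA in 13.5% and GGTTCA in 10.4%. The absence of these letters from Kit and Rec8 speaks only of these windows. The Stra8 window begins at 34920698, inside the gene span of 34920163 to 34939344, so its distances hold for the RefSeq start only. The windows of Dmrtb1 and Esx1 also lie inside their gene spans.

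The Sohlh1 promoter held 5 E-boxes, a number reached by 2.10% of promoters, and 3 of them read CACGTG, where 0.0888% of promoters held at least 3. Kit, Rec8, Kitl, Sohlh2 and Esx1 held 1 CANNTG each, Dmrtb1 held 3, and Stra8 and Prss50 held none. At least 1 CANNTG was present in 72.1% of promoters. The palindromic core ACANTGT of the motif known for DMRT1 was found once each in the promoters of Stra8, Sohlh1 and Esx1, against 7.59% of promoters. Promoter GC content was 74.7% for Dmrtb1, 69.0% for Kit, 68.7% for Kitl, 64.7% for Sohlh2 and 64.0% for Prss50. It was 63.3% for Sohlh1, 58.3% for Rec8, 55.7% for Stra8 and 54.0% for Esx1, beside a median of 52.7% over all promoters. These matches describe the sequences and say nothing of binding.

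Stra8 lies on chromosome 6 from 34920163 to 34939344 in GRCm38. Its value was 8.60 RPKM in mutant and 45.2 RPKM in control, so mutant held 19.0% of the control level (log2 difference -2.27). It was the lowest of the 10 genes by difference and number 126 from the bottom among the 16473 genes tested. Low values of the table stepped in whole reads, and with the longest coding transcript (1803 nt) this level corresponded to about 785 mutant reads (95% Poisson interval 731 to 842) and about 4057 control reads (3933 to 4184). Counting error alone put the mutant level between 0.176 and 0.206 of control. These intervals cover counting error only and do not include differences between animals or libraries.

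Stra8 had another place among the 10 genes in each genotype. In mutant it stood below Dmrt1, Sohlh1, Sohlh2 and Kit, whereas in control only Dmrt1 stood above it. The Stra8 level was 0.142 of the Sohlh1 level in mutant and 1.21 of it in control. Set against Ddx4, the germ cell RNA helicase, Stra8 stood at 0.0756 in mutant and 0.510 in control, a ratio 6.74-fold lower in mutant. The nearest protein-coding genes tested on their own were, in coordinate order, Wdr91, 9.29 kb before it (log2 difference -0.64), and Cnot4, 82.7 kb after it (0.50), and neither was past 2-fold.

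Rec8, on chromosome 14 from 55618037 to 55625395, is grouped with Stra8 as a gene that retinoic acid induces, but its values were 8.14 RPKM in mutant and 9.68 RPKM in control (log2 difference -0.22). With about 921 mutant and 1076 control reads, counting error put the mutant level between 0.770 and 0.920 of control, below equality. With the trend of differences with transcript length and GC content removed, the difference was 0.0082. Stra8 exceeded Rec8 only slightly in mutant, at a ratio of 1.06, while in control the ratio was 4.67.

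Kit, on chromosome 5 from 75574916 to 75656722, stood at 9.65 RPKM in mutant and 27.3 RPKM in control, and mutant held 35.3% of the control level (log2 difference -1.41). It was number 217 from the bottom of all genes tested. At about 2784 mutant reads and 7720 control reads, counting error put the mutant level between 0.338 and 0.369 of control. The Kit level was 0.0849 of the Ddx4 level in mutant and 0.309 of it in control. The nearest protein-coding genes tested on their own, Chic2 (log2 difference -0.069) and the VEGF receptor gene Kdr (0.26), were not past 2-fold.

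KIT is also carried by mast cells and Leydig cells, and markers of both moved with Kit. Among all genes tested, 49.6% were below control and 4.35% were 2-fold lower. All 10 tested mast cell genes were below control, 9 of these at least 2-fold. Their median was -2.37, and the sum over the 11 genes in the table was 22.9 RPKM in mutant and 237 RPKM in control. The mast cell protease gene Mcpt2 was at 3.42 RPKM in mutant and 65.9 RPKM in control, Cma1 at 3.52 and 45.1 RPKM in the same order, and Fcer1a was listed at 0 in mutant and at 0.0876 RPKM in control. All 5 tested Leydig cell genes were below control, 4 of these at least 2-fold, and had a summed level of 165 RPKM in mutant and 475 RPKM in control. The steroid hydroxylase gene Cyp17a1 was at 42.7 RPKM in mutant and 148 RPKM in control. The part of these cells in the Kit difference was not tested. In bulk RNA, fewer cells of a type and less RNA per cell cannot be told apart.

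Kitl, the gene of KIT ligand on chromosome 10 from 100015630 to 100100413, was also lower, at 5.37 RPKM in mutant and 10.2 RPKM in control. Its log2 difference of -0.81 did not reach 2-fold, and it became -1.34 when values were rescaled to germ cell identity genes. At about 1674 mutant and 3105 control reads, counting error put the mutant level between 0.497 and 0.560 of control. Sertoli cells, its source in the tubule, had 11 of 12 marker genes below control, 4 of these at least 2-fold. Their median was -0.86, with a summed level of 221 RPKM in mutant and 458 RPKM in control. Of the 12, 3 were 2-fold lower with quantile normalization, 1 with the length and GC trend removed and 9 with rescaling. Among all genes tested, 49.6% were below control and 4.35% were 2-fold lower as reported. The number 2-fold lower was 707 of 16473 genes with quantile normalization and 3093 with rescaling. With the length and GC trend removed it was 768 of 15465. No Sertoli marker was at 0. Kitl stood at 4.87 times Sox9, the Sertoli transcription factor gene, in mutant and at 4.65 times in control, although Sox9 itself was only at 1.10 RPKM in mutant and 2.19 RPKM in control. The part of Sertoli cell RNA in the Kitl difference was not tested.

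The SOHLH pair moved almost in step. Sohlh1, on chromosome 2 from 25842995 to 25847248, was at 60.6 RPKM in mutant and 37.2 RPKM in control, 1.63-fold higher. Sohlh2, on chromosome 3 from 55182028 to 55209957, was at 50.5 RPKM in mutant and 30.8 RPKM in control, 1.64-fold higher. The ratio of Sohlh1 to Sohlh2 was 1.20 in mutant and 1.21 in control. Both genes have a single annotated transcript, and counting error put the mutant level between 1.54 and 1.72 of control for Sohlh1 and between 1.57 and 1.71 for Sohlh2. In mutant both stood far above Kit, a gene that SOHLH factors are known to activate in mice: Kit was at 0.159 of the Sohlh1 level in mutant and at 0.735 of it in control.

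Dmrt1, needed in mice to hold spermatogonia back from meiosis, had the highest level of the 10 genes in both genotypes. It lies on chromosome 19 from 25505618 to 25604329 and was at 124 RPKM in mutant and 93.0 RPKM in control, 1.33-fold higher. Dmrtb1 (DMRT6), which in mice acts in the passage from the mitotic to the meiotic programme, was much weaker, at 6.34 RPKM in mutant and 3.55 RPKM in control, 1.78-fold higher. It lies on chromosome 4 from 107676290 to 107684230, and counting error put its mutant level between 1.56 and 2.05 of control. Dmrt1 is made by Sertoli cells as well as germ cells, and Sertoli markers were lower in mutant, as given with Kitl. Against Ddx4, Dmrt1 stood at 1.09 in mutant and 1.05 in control.

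Germ cell identity genes were higher in mutant by amounts like those of the 4 transcription factors. All 19 lay above control, none by 2-fold, and had a median of 0.60 and a summed level of 1740 RPKM in mutant and 1247 RPKM in control, and no member was at 0. Among all genes tested, 50.4% lay above control and 4.4% were 2-fold higher. Mael and Sycp3 of the germ cell list stand in other lists as well. Dazl, a germ cell RNA-binding protein gene, was at 353 RPKM in mutant and 274 RPKM in control. When mutant values were divided by 1.58, which brought the median ratio of these genes to equality, Sohlh1 was at 0.042, Sohlh2 at 0.050 and Dmrtb1 at 0.14, and Dmrt1 turned to -0.24. The median of all genes tested moved to -0.55 in that scaling. Stra8 and Kit were then at -2.84 and -1.99, past 2-fold as before, which division of the mutant values could not undo.

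The protease-like gene Prss50 and the X-linked homeobox gene Esx1 were near the filter. Prss50, on chromosome 9 from 110857967 to 110864629, was at 1.42 RPKM in mutant and 1.27 RPKM in control, or about 101 and 90 reads. Esx1, on the X chromosome from 137115397 to 137122083, was at 0.987 RPKM in mutant and 1.28 RPKM in control, or about 84 and 107 reads. Counting error alone put the mutant level between 0.828 and 1.49 of control for Prss50 and between 0.575 and 1.04 for Esx1, so no difference was detectable for either at this depth. Their signs also changed with the processing, Prss50 to -0.072 with quantile normalization and -0.26 with rescaling to germ cell genes, and Esx1 to 0.0077 with the length and GC trend removed.

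**Figure D2:**
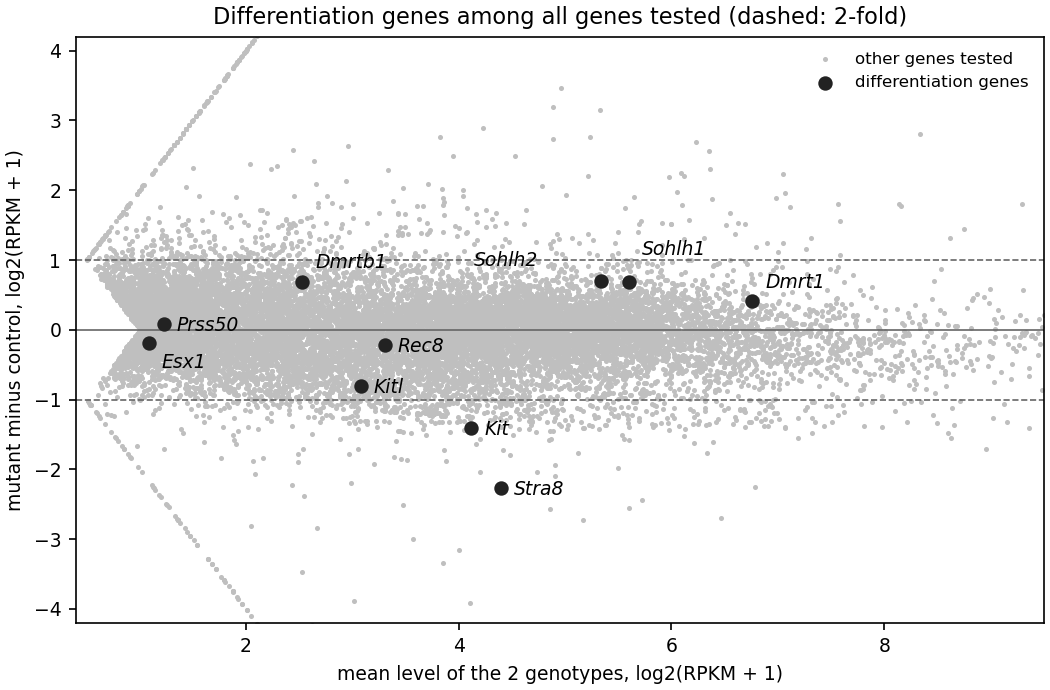
Difference against mean level for the 16473 genes tested, each point a gene, with the 10 differentiation genes in black and dashed lines at 2-fold; 324 genes lie outside the axes. Stra8 (-2.27) and Kit (-1.41) lie below the lower line, and the other 8 lie between the lines.

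The 10 genes lie on 10 different chromosomes, none overlaps another gene in GENCODE M21, and 9 had the same start and end there as in the table after 1 was added to each start. Of their 20 nearest protein-coding neighbours tested on their own, 1 was 2-fold higher (Nbea, after Sohlh2, at 1.12) and 1 was 2-fold lower (Bmyc, before Sohlh1, at -1.05). Both were named after their values were seen. Among all protein-coding genes tested, 1.31% were 2-fold higher and 4.06% were 2-fold lower.

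Genes with a pair of values most like those of Stra8 were found by Euclidean distance of log2(RPKM + 1) over the 2 combined columns, among protein-coding genes. The 5 nearest were the haemoglobin gene Hba-a2 (distance 0.32), the folate receptor gene Folr2 (0.36), the Toll-like receptor gene Tlr13 (0.50), the lysosomal peptidase gene Tpp1 (0.55) and Ctla2b (0.57). Hba-a2 shares near-identical sequence with another alpha-globin gene, which leaves its value uncertain. The 5 nearest to Kit were the anion transporter gene Slco2b1 (0.015), Cmtm3 (0.092), the urokinase gene Plau (0.13), Cd300a (0.13) and Lrrc25 (0.13). Macrophage genes, given for comparison, were below control for 10 of 10 tested members, all at least 2-fold. Among all genes tested, 49.6% were below control and 4.35% were 2-fold lower. The macrophage genes had a summed level of 1595 RPKM in mutant and 4427 RPKM in control. Their part in the differences of Stra8 and Kit was not tested.

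Other genes that retinoic acid induces were below control in all 7 tested cases, 3 of these at least 2-fold. The whole tested set had 49.6% of its genes below control and 4.35% at least 2-fold lower. The median of the 7 was -0.83, beside 0.0048 for all genes tested. Rescaling to germ cell genes put 6 of the 7 past 2-fold, a setting where 3093 of all 16473 genes were 2-fold lower. Once trends over length and GC content were taken out, 1 of the 7 was past 2-fold, beside 768 of 15465 genes 2-fold lower. Dhrs3, a retinal reductase gene, was at 21.2 RPKM in mutant and 57.6 RPKM in control. Cyp26b1, of a retinoic acid hydroxylase, was at 3.41 RPKM in mutant and 8.02 RPKM in control. The related hydroxylase gene Cyp26a1 was at 0.409 RPKM in mutant and 1.84 RPKM in control. Rarb did not pass the filter. Sertoli cell markers were lower in the same values, and their part in these differences was not tested.

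Of 14 other genes of spermatogonial differentiation and its start, 3 were 2-fold higher, 3 were 2-fold lower and 8 were neither. Among all genes tested, 4.4% were 2-fold higher and 4.35% lower. The list median of 0.32 became -0.31 with rescaling to germ cell genes, where 1 gene was 2-fold higher and 3 were 2-fold lower. In that scaling the median of all 16473 genes tested was -0.55, and 380 of them were 2-fold higher and 3093 lower. Neurog3, a progenitor transcription factor, was at 6.94 RPKM in mutant and 1.40 RPKM in control, and Sox3, also of progenitors, at 11.3 RPKM in mutant and 3.47 RPKM in control. The cyclin gene Ccnd2 was at 102 RPKM in mutant and 247 RPKM in control, and Ddit4l, which restrains mTOR, at 3.23 RPKM in mutant and 9.17 RPKM in control. The list thus held genes past 2-fold on both sides.

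The counts for genes that act with these stand beside shares of 4.35% lower and 4.4% higher among all genes tested as reported. With rescaling to germ cell genes, 3093 of the 16473 genes tested were 2-fold lower and 380 higher, and their median was -0.55. With a pseudocount of 0.1, 1107 were lower and 1417 higher, and with one of 0.5, 891 were lower and 1002 higher. Of 43 KIT signalling partners, Ptpn6, a phosphatase of blood cells that dampens KIT, was 2-fold lower (29.9 RPKM in mutant and 69.6 RPKM in control) and none was 2-fold higher, with a median of -0.076. With a pseudocount of 0.1 or 0.5, 2 KIT signalling partners were 2-fold lower, and with rescaling to germ cell genes 7 were. Of 8 tested genes of KIT's relatives and their ligands, the macrophage receptor gene Csf1r alone was 2-fold lower, at 76.9 RPKM in mutant and 191 RPKM in control, and all 8 lay below control. The number lower was 2 with either smaller pseudocount or with rescaling. None of 7 tested DM domain genes was past 2-fold on the log2(RPKM + 1) scale, with a median of 0.085 that became -0.045 with quantile normalization and -0.35 with rescaling to germ cell genes. With a pseudocount of 0.1 or 0.5, 1 of these 7 was 2-fold higher and 1 was 2-fold lower, and with rescaling 2 were 2-fold lower. Chosen after their values were seen, the tested genes of this family farthest from control in RPKM were Dmrta2, at 1.28 RPKM in mutant and 0.264 RPKM in control, and Dmrt2, at 1.35 RPKM in mutant and 3.22 RPKM in control.

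None of 21 cohesin genes, the family of Rec8, was past 2-fold, and 16 lay above control, with a median of 0.26 that became -0.39 with rescaling to germ cell genes. The median of all genes tested was -0.55 in that scaling. As reported, 50.4% of all genes tested lay above control, 4.4% were 2-fold higher and 4.35% were 2-fold lower. Wapal, the cohesin release factor gene, was at 208 RPKM in mutant and 174 RPKM in control. The level of Rec8 was 0.0579 of that of its meiotic partner Stag3 in mutant and 0.0987 of it in control. None of 10 genes of meiotic initiation was past 2-fold on the log2(RPKM + 1) scale, with a median of 0.13 that became -0.29 with that rescaling. With quantile normalization 1 of the 10 was 2-fold higher, and with rescaling 1 was 2-fold lower. Of all 16473 genes tested, 676 were 2-fold higher with quantile normalization and 3093 were 2-fold lower with rescaling. Sycp1, of the synaptonemal complex, was at 83.0 RPKM in mutant and 42.1 RPKM in control. Of 13 relatives of Prss50, Prss48 alone passed the filter, at 1.30 RPKM in mutant and 1.11 RPKM in control.

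**Figure D3:**
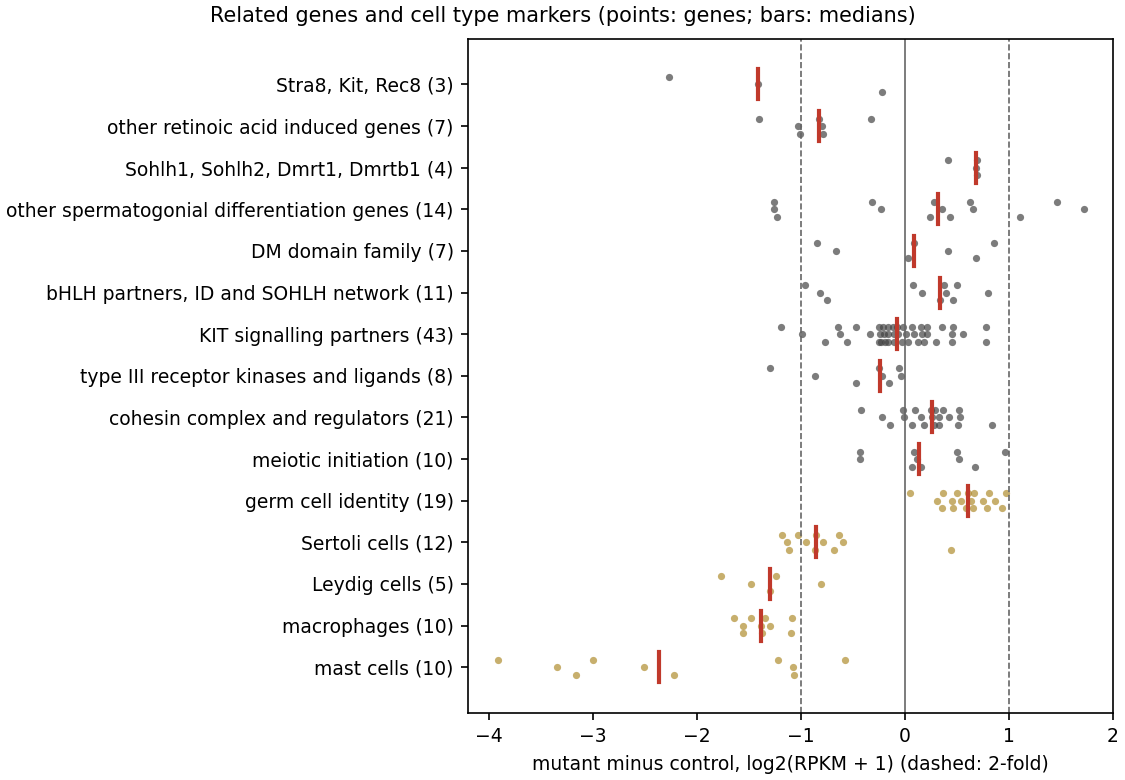
Difference of every tested gene (points) in each list of related genes and cell type markers, with red bars for list medians, dashed lines at 2-fold and the number tested in brackets. Germ cell identity genes lie right of 0 (median 0.60) with Sohlh1, Sohlh2, Dmrt1 and Dmrtb1 (0.69), and the mast cell list lies furthest left (-2.37).

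**Figure D4:**
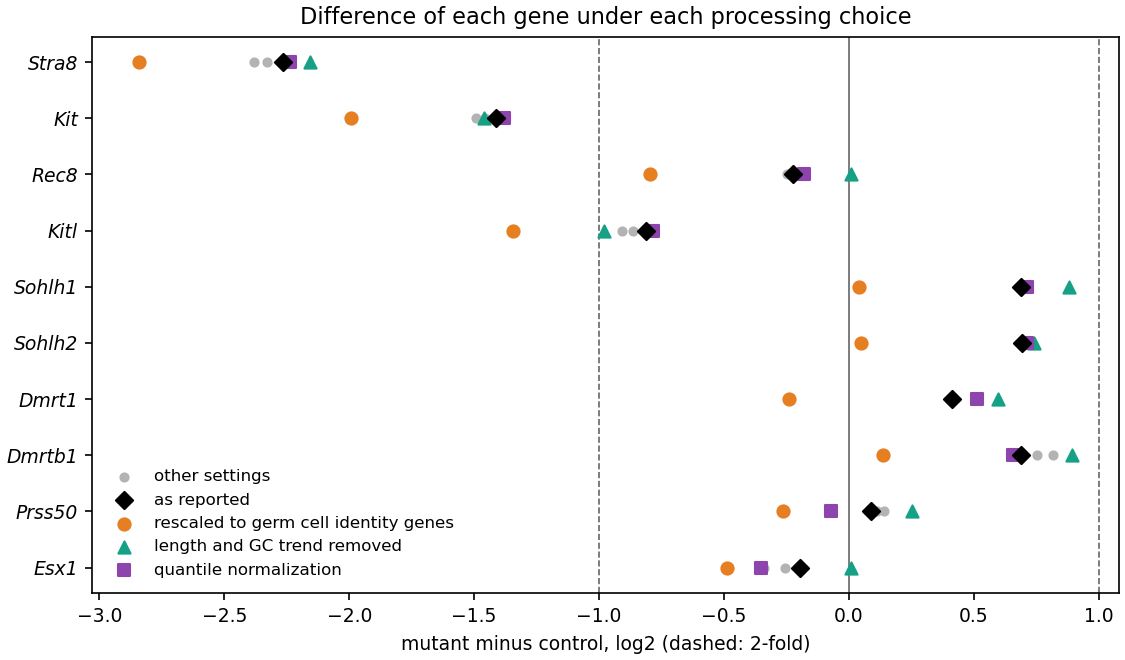
Difference of each of the 10 genes as reported (black) and under each processing alternative, with dashed lines at 2-fold. Stra8 and Kit stay left of the lower line under all of them. Only quantile normalization and removal of the length and GC trend could have moved Stra8 and Kit nearer to 0. Rescaling to germ cell identity genes (orange) moves Dmrt1 left of 0 and Kitl past 2-fold.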

How the data were processed

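RNA of 4 libraries was read from 1 deposited table. Per the file headers, its values are RPKM, with 1 column for both mutant libraries and 1 for both control libraries, and no source used here says how the authors combined them. TopHat2 2.0.11 and the build GRCm38 are named in the submitters' processing notes. Because there is 1 value per genotype, the planned limma fit could not be run, and differences were given as log2((mutant RPKM + 1) / (control RPKM + 1)) without a test. Of 17278 entries that reached 1 RPKM in at least 1 genotype, 774 pooled several symbols and were left out. For a repeated symbol the entry with the highest mean was kept, which left 16473 genes, 12184 of them protein-coding by symbol in GENCODE M21.

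Depth was read from the low values of 3357 genes that have a single transcript of 1000 nt or longer. The product of RPKM and transcript length, after an offset of 210 nt for mutant and 200 nt for control was taken from the length, lay within 0.1 of a whole read for 95.3% of 879 mutant and 90.9% of 872 control values up to 10 reads. The steps correspond to 57.3 M mutant reads and 56.0 M control reads if no other scaling entered the values. Intervals are exact Poisson for reads and exact binomial for ratios at 95%.

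The 10 genes and all lists were chosen with earlier results of these data known, and ratios between genes after the values were seen. The text names the 10 genes, up to 4 members of each other list past 2-fold (or, with none past it, the member with the highest control value) and the 5 genes nearest to Stra8 and to Kit. Outside this rule stand Ddx4, Sox9 and Stag3, used in ratios, then Fcer1a, Rarb, Mael and Sycp3, and the nearest chromosome neighbours. Of the Sertoli list only Sox9 is named, which was not past 2-fold (-0.60). The rest are named as chosen later. The scripts were tested on simulated data. Python 3.11.15, pandas 2.3.3, scipy 1.17.1 and scikit-learn 1.9.0 were used.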

Additional observations from a re-analysis of the deposited data

How the results depend on the processing

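A set of 8 alternatives were tried: pseudocounts of 0.1 and 0.5, no filter, an RPKM of 5, quantile normalization, rescaling to 19 germ cell identity genes, removal of the trend with length and GC content, and the sum of repeated entries. Stra8 ranged from -2.84 to -2.16 and Kit from -1.99 to -1.38, and both remained 2-fold lower in all 8. No filter, an RPKM of 5 and the sum of repeated entries left both values as reported. Smaller pseudocounts and rescaling could only widen them. Only quantile normalization (-2.24 and -1.38) and removal of the trend (-2.16 and -1.46) could have brought Stra8 and Kit nearer to control. Kitl, at -1.34, joined Stra8 and Kit with rescaling. Signs turned for Dmrt1 (-0.24 with rescaling), Prss50 (-0.072 with quantile normalization and -0.26 with rescaling), Rec8 (0.0082 with the trend removed) and Esx1 (0.0077 with the trend removed). Among 119 related genes tested, 3 were 2-fold higher and 8 lower as reported, beside 4.4% and 4.35% of all genes tested. Of the 119, the number higher was 5 with either pseudocount and 1 with rescaling. The number lower was 13 with a pseudocount of 0.1 and 24 with rescaling. Of all 16473 genes tested, 724 were higher and 716 lower as reported. These numbers were 1417 and 1107 with a pseudocount of 0.1, 1002 and 891 with one of 0.5, and 380 and 3093 with rescaling. Rescaling lowers every mutant value by construction, so it hardly moves the gap between the retinoic acid induced genes and the transcription factors (-2.04 beside -2.10 as reported). A smaller pseudocount widens differences of low genes by construction.

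No paired analysis was possible because the table combines both libraries of a genotype in 1 column, and no fit without a replicate was run for the same reason. Depth limits Prss50 and Esx1, with 84 to 107 reads. For all 10 genes the spread between libraries is unknown here.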

Other observations

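Genes of helix-loop-helix partners, ID proteins and the oocyte SOHLH network are given here as values, and those named were chosen after their values were seen. Of 11 tested genes of the list, which also holds the germ cell gene Mael (219 RPKM in mutant and 159 RPKM in control), none was past 2-fold on the log2(RPKM + 1) scale. With a pseudocount of 0.1 or 0.5, 1 was 2-fold higher, and with rescaling to germ cell identity genes 3 were 2-fold lower. Among all 16473 genes tested, 4.4% were 2-fold higher and 4.35% lower as reported. The number higher was 1417 with a pseudocount of 0.1 and 1002 with one of 0.5, and the number lower with rescaling was 3093. Tcf3 and Tcf12, which encode the broadly expressed E proteins that pair with helix-loop-helix factors, were at 70.7 and 71.4 RPKM in mutant and at 54.2 and 54.0 RPKM in control. Tcf4, of the same class, was at 31.3 RPKM in mutant and 27.8 RPKM in control. Tcfl5 had a log2 ratio of mutant to control of 0.081. ID proteins block such pairing, and Id1, Id2 and Id3 were lower, at 5.81, 27.0 and 11.5 RPKM in mutant and at 10.96, 53.6 and 20.0 RPKM in control. Id4, which in mice marks the stem cell end of the spermatogonial population, was higher, at 26.7 RPKM in mutant and 18.5 RPKM in control. Figla, an oocyte helix-loop-helix factor gene, was at 6.34 RPKM in mutant and 4.80 RPKM in control, and Lhx8 at 1.32 RPKM in mutant and 0.332 RPKM in control. The list median of 0.34 became -0.27 with rescaling to germ cell identity genes, beside -0.55 for all genes tested in that scaling.

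Among KIT signalling partners, also named after their values were seen, the Src family kinase genes differed in direction. Lyn was at 16.6 RPKM in mutant and 34.1 RPKM in control, while Yes1 was at 17.6 RPKM in mutant and 12.6 RPKM in control and Fyn at 94.3 and 88.4 RPKM in the same order. Akt1 was at 52.3 RPKM in mutant and 89.7 RPKM in control. Cblb, a ubiquitin ligase gene, was at 13.5 RPKM in mutant and 7.44 RPKM in control. None of these passed 2-fold on the log2(RPKM + 1) scale, where Lyn was at -0.99, although in RPKM alone it was 2.05-fold lower. With a pseudocount of 0.1 or 0.5, 2 genes of the KIT partner list were 2-fold lower. Among all 16473 genes tested, 1107 and 891 were, in that order.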
